A study of Mus musculus with 6 samples.

Results

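Mmp12, Gpnmb, Lgals3, Cd14, Itgam and Itgax are genes of recruited monocytes and of the macrophages that take up lipid in a steatotic liver. They were taken by symbol from a deposited table of RNA levels in mouse liver, and all 6 had a row among its 389 genes. The table compared mice without Usp28 in the whole body (KO, 3 samples) with their wild-type counterparts (WT, 3 samples). The product of Usp28 is a deubiquitinase, and the series title concerns its part in PPARγ expression and diet-induced steatohepatitis. From 8 weeks of age the mice of both groups were kept for 4 weeks on a methionine-choline deficient (MCD) diet, which brings on fat storage, inflammation and injury in the liver. Animals on a control diet are not analysed here. The sources used here do not give the knockout allele, the strain or the sex, nor say whether the 3 samples of a group were 3 animals. The p-values measure only the spread between the samples, which may be partly technical.

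The recruited macrophage is a blood monocyte that has entered the tissue and matured there, beside or in place of the resident Kupffer cell. In fatty liver a share of these cells collects around lipid-laden hepatocytes and takes on a lipid-associated state, in which genes of lysosomes, lipid handling and matrix breakdown are active. Itgam and Itgax encode adhesion receptors of the monocyte surface, Cd14 a receptor for bacterial lipopolysaccharide, Lgals3 and Gpnmb proteins abundant in phagocytes loaded with lipid or debris, and Mmp12 a secreted protease.

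The authors had selected the genes of the table on this same contrast. In the authors' deposited table the smallest absolute log2 fold change was 1.004 and the largest FDR 0.0494, so a difference between KO and WT in any member is a condition of its having a row and not a finding. By FDR in the authors' deposited table, Gpnmb stood in place 87 of the 389 genes (1.01e-05) and Mmp12 in place 135 (0.000222). Itgax stood in place 240 (0.00409), Lgals3 in place 257 (0.00624) and Cd14 in place 344 (0.0302). Itgam stood last, at 0.0494. The selection did not set the level of each library, but it bears on their spread. A single high WT library can carry a gene past that fold change. In the edgeR fit without WT replicate 3 given below, Itgax, Itgam, Lgals3 and Cd14 stood at log2 fold changes of -0.94, -0.83, -0.70 and -0.43. Mmp12 and Gpnmb stood at -1.45 and -1.79. A high WT replicate 3 in the first-named genes is thus partly tied to their having a row. Total depth, recovered from the counts and FPKM (fragments scaled to transcript length and library size) of the same genes, was 20350000 to 24160000 reads per library. The listed genes took 5.45% to 8.81% of the reads in WT and 3.73% to 3.77% in KO, with WT replicate 3 the lowest of the WT libraries. Usp28 has no row in the table, so its level could not serve as a check of the genotypes.

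The start regions of 3 members are shown because they hold a match to one of the motifs searched, which are those of factors known for macrophage genes. Each stretch runs from base 130 to base 31 before the RefSeq start, on the plus strand of GRCm38.p6, at chr9:7344267-7344366 for Mmp12, chr7:128062510-128062609 for Itgam and chr7:128129420-128129519 for Itgax. Capitals mark the PU.1 motif GAGGAAG or its reverse complement in Mmp12 and Itgam, and the AP-1 motif TGANTCA in Itgax.
Mmp12: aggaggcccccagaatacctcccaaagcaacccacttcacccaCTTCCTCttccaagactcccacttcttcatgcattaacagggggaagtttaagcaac
Itgam: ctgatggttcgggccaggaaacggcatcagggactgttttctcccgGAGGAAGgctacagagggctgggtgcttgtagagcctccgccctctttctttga
Itgax: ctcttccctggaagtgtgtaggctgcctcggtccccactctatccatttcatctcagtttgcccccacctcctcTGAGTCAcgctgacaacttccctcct

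Promoter sequences were matched by symbol for 5 members, Cd14 being the one without. Over the 250 bases before the start, on both strands, GAGGAAG was found in 2 of the 5 member promoters and in 10.6% of the 32851 promoters of the RefSeq table. TGANTCA was found in 1 of 5 and in 6.75% of all. CACGTG, the E-box of MITF and TFEB, was found in none of the 5 and in 6.02% of all, and TTCNNNGAA, the STAT motif, in none of the 5 and in 7.02%. The direct-repeat PPAR response element (DR1), of interest because the study concerns PPARγ, was found in none of the 5 and in 0.0335% of all. These matches describe letters in a short window and not sites of binding.

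Itgam and Itgax were the only pair of members that were neighbours in the genome. In GENCODE M21 on GRCm38, Itgam (ENSMUSG00000030786) lies at chromosome 7, 128062640 to 128118491, and Itgax (ENSMUSG00000030789) at chromosome 7, 128129547 to 128150657, 11055 bases further on the same strand with no protein-coding gene between them. Mmp12 (ENSMUSG00000049723, chromosome 9, 7344381 to 7369499) lies 322590 bases from Mmp7, another listed gene, with 5 protein-coding genes between them. Gpnmb (ENSMUSG00000029816) is at chromosome 6, 49036546 to 49070929, Lgals3 (ENSMUSG00000050335) at chromosome 14, 47367751 to 47386160, and Cd14 (ENSMUSG00000051439) at chromosome 18, 36725067 to 36726798. Mmp12 overlaps Mmp1b on the opposite strand and Itgam overlaps Gm49368 on its own strand. These overlaps are of whole gene spans, and exons were not compared. The use of strand in the authors' counting is not given, so whether reads were shared between these genes could not be checked.

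In the WT libraries the 6 genes stood in 1 order in FPKM, with replicate 3 highest and replicate 2 lowest. For Gpnmb and Itgam parts of that order were within counting error. In WT replicate 2 Mmp12, Lgals3 and Cd14 stood close to KO. Read per gene, 3 forms were seen among the members. Gpnmb had a high level in WT replicates 1 and 3. Mmp12 and, at a lower level, Itgax were graded over the 3 WT libraries. For Lgals3 and Cd14, WT replicate 3 stood far above every other library. The integrins Itgam and Itgax were low in all 6 libraries. Itgam had the smallest coefficient of variation in WT, 26.5%, and was not placed in a form. In bulk liver RNA, fewer macrophages and less RNA per macrophage cannot be told apart.

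**Figure D1:**
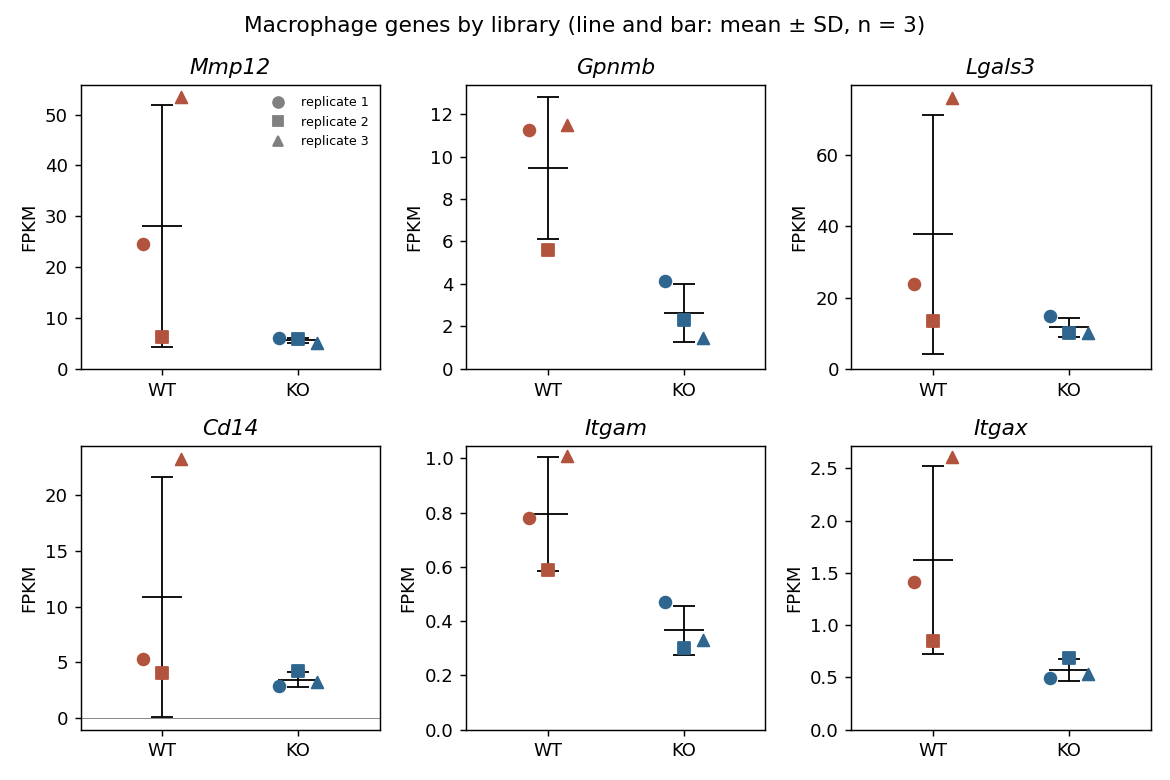
FPKM (vertical axes, linear from 0 or just below) of the 6 genes in the 3 WT and 3 KO libraries; each point is 1 library, the marker shape gives its replicate number, and the lines are mean ± SD (n = 3). WT replicate 3 (triangles) is the highest WT library for each gene, and WT replicate 2 (squares) lies within the KO range for Lgals3 and Cd14.

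Among the proteins that act on matrix or glycans, Mmp12, macrophage elastase, stood at 24.48, 6.22 and 53.37 FPKM in WT replicates 1, 2 and 3, and at 6.04, 5.83 and 5.11 in KO replicates 1, 2 and 3. WT replicate 2 was level with the KO libraries, 1.03-fold above the highest of them, so the groups were separate by a margin within counting error. In CPM (counts scaled to recovered depth) those neighbouring values were 8.94 (95% exact Poisson interval 7.79 to 10.2, counting error only) and 8.53 (7.33 to 9.88). WT replicates 1 and 3 were 4.33-fold and 9.43-fold above the KO mean. The KO libraries lay within 1.18-fold of each other, and the scatter of their counts was near that of counting alone (1.05 as chi-square over its degrees of freedom, where WT had 656). The mean FPKM was 28.0 ± 23.8 for WT and 5.66 ± 0.488 for KO (SD, n = 3 each).

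Lgals3, which encodes galectin-3, a lectin that binds galactose-containing glycans and is released by activated macrophages, stood at 23.84, 13.55 and 76.06 FPKM in WT replicates 1, 2 and 3. In KO replicates 1, 2 and 3 it stood at 14.84, 10.20 and 10. The groups overlapped, since WT replicate 2 lay below KO replicate 1, and WT replicate 3 was 3.19-fold above the next library. It was the most abundant member per transcript length in each of the 6 libraries but WT replicate 1, where Mmp12 was slightly higher. The mean FPKM was 37.8 ± 33.5 for WT and 11.7 ± 2.74 for KO (SD, n = 3 each). Lgals3 is also made by injured epithelium, so its level in whole liver cannot be assigned to macrophages alone.

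Gpnmb encodes a membrane glycoprotein of lysosomes and phagosomes that is typical of lipid-loaded macrophages. It stood at 11.26, 5.60 and 11.50 FPKM in WT replicates 1, 2 and 3, and at 4.16, 2.28 and 1.47 in KO replicates 1, 2 and 3. The groups did not overlap, and the lowest WT library was 1.35-fold above the highest KO library. Unlike the other members, Gpnmb had WT replicates 1 and 3 at nearly 1 level (1.02-fold apart) and spread more in KO, by 2.83-fold between the highest and lowest library. Its coefficient of variation was 35.3% in WT and 52.3% in KO, whereas that of Mmp12 was 84.8% and 8.62%. The mean FPKM was 9.45 ± 3.34 for WT and 2.64 ± 1.38 for KO (SD, n = 3 each).

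Among the surface receptors, Cd14, the co-receptor that hands lipopolysaccharide to the Toll-like receptor TLR4, stood at 5.33, 4.01 and 23.30 FPKM in WT replicates 1, 2 and 3. In KO replicates 1, 2 and 3 it stood at 2.89, 4.19 and 3.27. The groups overlapped, since KO replicate 2 was above WT replicate 2, and WT replicate 3 alone was far from the rest, at 6.75-fold the KO mean against 1.54-fold and 1.16-fold for WT replicates 1 and 2. The mean FPKM was 10.9 ± 10.8 for WT and 3.45 ± 0.668 for KO (SD, n = 3 each), with a WT coefficient of variation of 99.0%, the largest of the 6 members. Cd14 is also made by hepatocytes in an acute phase response. It was the only gene with a row among 19 fixed for the lipopolysaccharide receptor and Toll-like receptor pathway, so its partners Tlr4, Ly96 and Lbp are not analysed here.

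Itgam encodes the αM integrin chain (CD11b), which pairs with the β2 chain to form complement receptor 3 of monocytes and neutrophils. It stood at 0.78, 0.59 and 1.01 FPKM in WT replicates 1, 2 and 3, and at 0.47, 0.30 and 0.33 in KO replicates 1, 2 and 3. The groups did not overlap, but the level was the lowest of the 6 members and rested on 63 to 91 counts per WT library and 27 to 46 per KO library. The count of 63 in WT replicate 2 had a 95% exact Poisson interval of 48.4 to 80.6, and that of 46 in KO replicate 1 one of 33.7 to 61.4, so the nearest libraries of the groups were not separable at this depth. The mean FPKM was 0.793 ± 0.21 for WT and 0.367 ± 0.0907 for KO (SD, n = 3 each).

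Itgax encodes the αX integrin chain (CD11c), the β2 partner in complement receptor 4, found on dendritic cells and on lipid-associated macrophages. It stood at 1.41, 0.85 and 2.61 FPKM in WT replicates 1, 2 and 3, and at 0.49, 0.69 and 0.53 in KO replicates 1, 2 and 3. The groups did not overlap, with WT replicate 2 1.23-fold above KO replicate 2. In CPM the 95% exact Poisson intervals of these libraries overlapped (2.55 to 4.03 and 2.15 to 3.59), so that margin was within counting error. The mean FPKM was 1.62 ± 0.899 for WT and 0.57 ± 0.106 for KO (SD, n = 3 each). Although the genes are neighbours, Itgax and Itgam did not keep a fixed ratio: Itgax was 1.81, 1.44 and 2.58 times Itgam in FPKM in WT replicates 1, 2 and 3, and 1.04, 2.30 and 1.61 times in KO replicates 1, 2 and 3. The Itgam counts are low, and counting error adds to this scatter.

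Within WT, the order replicate 3, 1, 2 was found in all 6 members in FPKM, so the 15 pairs of members all shared it. Among the 233 listed genes lower in KO, 64 had that order (27.5%), and 85 had WT replicate 3 highest (36.5%). The most frequent order among those genes, in 68 of the 233, had replicate 1 highest and replicate 3 lowest. In CPM, Gpnmb was slightly higher in WT replicate 1 (38.8) than in WT replicate 3 (38.3), so 5 members and 10 pairs shared the order on that scale. In KO the members had no common order, with 4 of the 15 pairs alike. Since a high WT replicate 3 is partly tied to some members having a row, the shared WT order is description only.

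**Figure D2:**
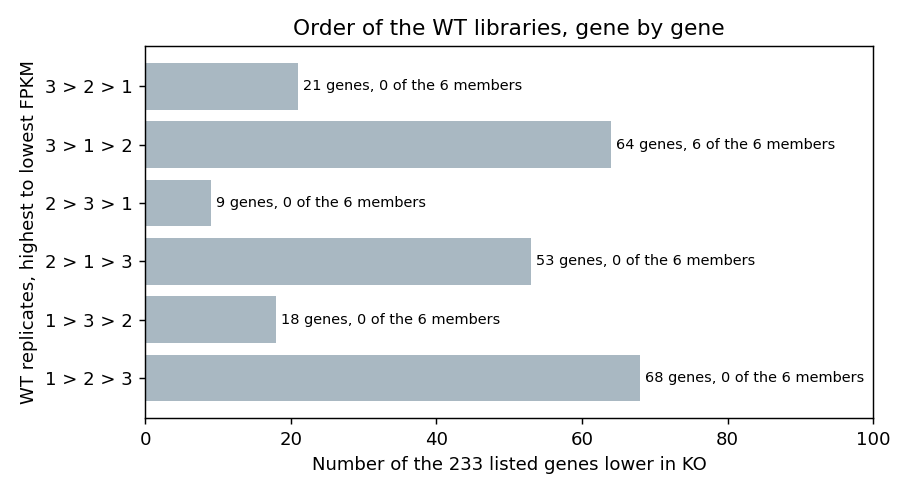
Number of the 233 listed genes lower in KO (horizontal axis) for each order of the 3 WT replicates by FPKM (vertical axis, highest replicate first). The 6 members all have the order 3, 1, 2, which 64 of the 233 genes share, while 68 genes have replicate 1 highest and replicate 3 lowest.

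The size of the rise was unequal. On the log2(FPKM + 1) scale, WT replicate 3 stood 3.03 above the KO mean for Mmp12, 2.62 for Lgals3, 2.46 for Cd14, 1.85 for Gpnmb, 1.20 for Itgax and 0.56 for Itgam. This scale understates the low genes Itgam and Itgax. From WT replicate 2 to WT replicate 3 the FPKM differed 8.58-fold for Mmp12, 5.81-fold for Cd14, 5.61-fold for Lgals3, 3.07-fold for Itgax, 2.05-fold for Gpnmb and 1.71-fold for Itgam. By this difference on the log2(FPKM + 1) scale Mmp12 was in place 2, Lgals3 in place 7 and Cd14 in place 8 of the 233 listed genes lower in KO, and Itgam in place 77. The median over the 6 members was 1.62, where the median of those 233 genes was -0.17, WT replicate 3 being on balance slightly below WT replicate 2. For Itgax, Itgam, Lgals3 and Cd14 a high WT replicate 3 is partly tied to their having a row. The members were also chosen with earlier results known, so these places and medians are description only. WT replicate 2 was 2.12-fold above the KO mean for Gpnmb, 1.61-fold for Itgam and 1.49-fold for Itgax, but 1.16-fold for Lgals3 and Cd14 and 1.10-fold for Mmp12.

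**Figure D3:**
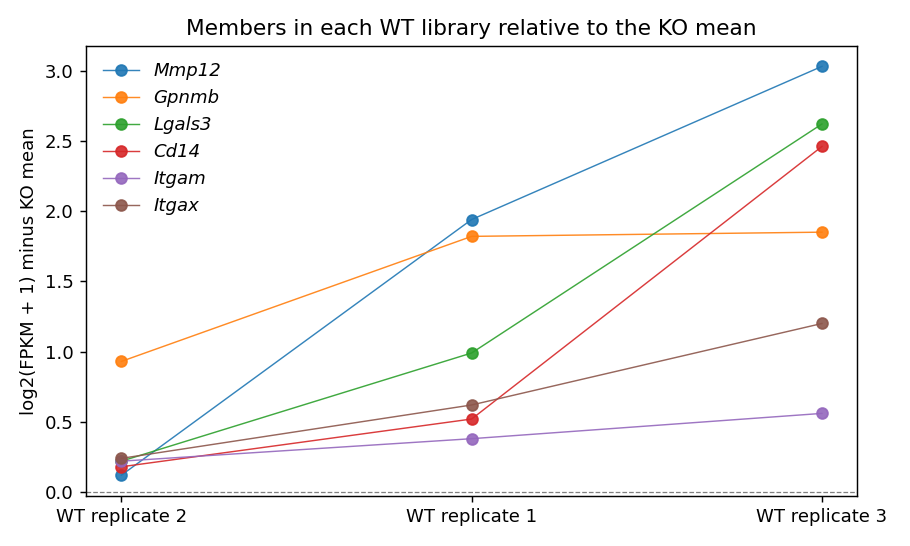
log2(FPKM + 1) of each member in the 3 WT libraries minus the mean of the 3 KO libraries (vertical axis, dashed line at the KO mean); libraries are placed by the members' mean level and lines join the points of a gene. In WT replicate 2 Gpnmb is at 0.93 and the other members between 0.12 and 0.24, while in WT replicate 3 they spread from 0.56 to 3.03.

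Beyond the members, the listed genes whose profile over the 6 libraries was most like theirs were Adam8, Mthfd1l, Fam131c, Thbd, Lad1, Abr, Osbpl3, Ttc39a, Lamc3 and Mmp7. Likeness was Pearson's r between log2(FPKM + 1) and the mean scaled profile of the 6 members. It is given as a description with no p, since the libraries form 2 groups and the genes share libraries and selection. Over these 10 genes it ran from 0.978 (Mmp7) to 0.996 (Adam8), and from 0.943 to 0.998 once each group's mean had been removed. Without WT replicate 3, 4 of the 10 were still among the first 10. Of the 383 other listed genes, 52 had an r of at least 0.9, and the median over the 227 others lower in KO was 0.66. Each member's own r with the mean of the other 5 ran from 0.85 (Gpnmb) to 0.97 (Mmp12, Lgals3 and Itgax).

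Adam8, a membrane metalloprotease of leukocytes, stood at 0.98, 0.35 and 2.27 FPKM in WT replicates 1, 2 and 3 and at 0.31, 0.14 and 0.10 in KO replicates 1, 2 and 3. It followed the graded form of Mmp12, with groups separate by 1.13-fold, on 7 to 143 counts per library. Mmp7, matrilysin, a protease of injured epithelium, stood at 2.30, 1.36 and 13.67 FPKM in WT and at 0.18, 0.21 and 0.21 in KO, on 4 or 5 counts per KO library. Lamc3 (a laminin chain), Lad1 (ladinin, of basement membranes) and Thbd (thrombomodulin, of endothelium and monocytes) had WT replicate 3 highest and replicate 2 lowest as well. So did Mthfd1l, Fam131c, Abr, Osbpl3 and Ttc39a, the rest of the most alike genes. The order is thus not particular to the genes whose products are described here. Cd300lb, C5ar1 and Csf2rb2, which encode receptors of myeloid cells, had r of 0.977, 0.974 and 0.971, in places 11, 14 and 17. They were picked by function from places 11 to 20 after their values were seen. Serpinb6a, Nt5e, Samd10, Rbm24, Ly6d, Impdh1 and Rhoc took the other places, so nothing is read from the picked genes. C5ar1, the receptor for complement C5a, stood at 2.71, 1.58 and 4.63 FPKM in WT replicates 1, 2 and 3 and at 1.36, 1.65 and 0.94 in KO. Its WT replicate 2 lay within the KO range, on 53 counts beside 51 in KO replicate 2, and nothing is read from that overlap.

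**Figure D4:**
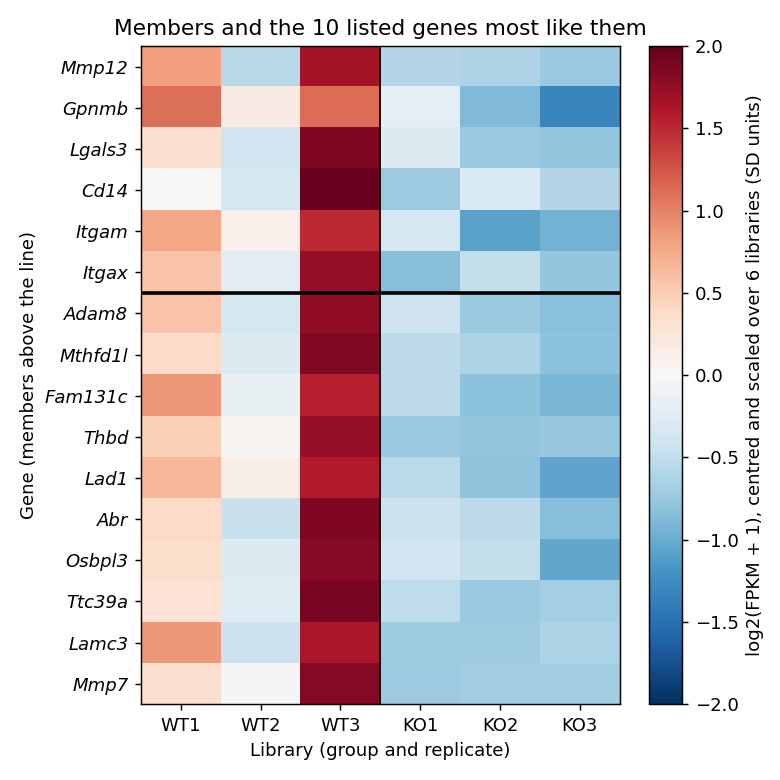
Level of the 6 members (above the line) and of the 10 listed genes most like them (below it) in each library; colour is log2(FPKM + 1), centred and scaled over the 6 libraries, in SD units. The WT replicate 3 column is the darkest for all of them but Gpnmb, which is about as high in WT replicate 1.

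Other genes of macrophages and their neighbours were sparse in the table. Of 25 genes of lipid-associated macrophages, 6 had a row, 4 of them members and the others Plin2 and Cd36, which hepatocytes also express. Of 26 genes of monocytes and recruited macrophages, 4 had a row, all of them members. None of 19 general leukocyte and macrophage markers (Ptprc, Adgre1, Csf1r and Cd68 among them), of 16 Kupffer cell markers, of 14 dendritic cell markers or of 16 T, NK and B cell markers had one, nor any of 23 chemokine and growth factor genes. The macrophage content of the samples therefore could not be checked against its defining markers, and levels of Trem2, Spp1 and Cd9 are not analysed here.

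Plin2, the coat protein of lipid droplets, stood at 1051.8, 763.59 and 1020.6 FPKM in WT replicates 1, 2 and 3, a pattern nearer that of Gpnmb than of Cd14, and at 203.7, 314.69 and 334.77 in KO. Cd36 stood at 81.8, 41.89 and 74.9 FPKM in WT replicates 1, 2 and 3 and at 36.99, 24.03 and 24.49 in KO. Both were highest in WT replicate 1, unlike the members in FPKM. In CPM the groups overlapped for Cd36, with WT replicate 2 at 95.7 and KO replicate 1 at 101. Of 27 metalloproteinases and inhibitors, Mmp12, Mmp7, Adam8 and Timp1 had rows. All 4 were called lower in KO, as were 59.9% of the listed genes, which were selected on this contrast. Without WT replicate 3, 3 of the 4 were called, Timp1 not (edgeR adjusted p = 0.0674), beside 55.5% of the listed genes. With relative log expression factors all 4 were called lower, beside 20.6% of the listed genes. Of 26 integrin subunits, Itgam, Itgax, Itga2 and Itgb3 had rows, and all 4 were called lower. Without WT replicate 3 all 4 integrin subunits were still called lower, beside 55.5% of the listed genes. With relative log expression factors, 1 of the 4 (Itga2) and 20.6% of the listed genes were called lower. Only Itga2, a collagen receptor chain, was lowest in WT replicate 3 (0.21, 0.29 and 0.15 FPKM in WT replicates 1, 2 and 3). Itgb3 shared the order of Itgam and Itgax, replicate 3, 1, 2, though it was nearly level in WT (2.72, 2.13 and 2.86). Lgals3 was the 1 listed gene of 10 galectins and Gpnmb that of 29 lysosomal genes and MITF or TFEB targets.

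Single markers of other cells moved with the members in WT replicate 3. Lcn2, the 1 listed gene of 15 neutrophil markers, which hepatocytes also make in the acute phase, stood at 28.76, 33.89 and 119.67 FPKM in WT replicates 1, 2 and 3 and at 12.37, 10.96 and 8.02 in KO. Timp1, the 1 listed gene of 14 stellate cell and fibroblast markers, stood at 0.45, 0.33 and 3.55 FPKM in WT and at 0.05, 0.26 and 0.06 in KO, on 1 to 61 counts. No gene of the 10 cholangiocyte, 11 sinusoidal endothelial or 14 hepatocyte markers had a row. The part of these other cells in the members' levels was not tested.

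In the fit of KO against WT, all 6 members were called lower in KO (edgeR's quasi-likelihood test, adjusted p under 0.05 over the 389 listed genes). So were 59.9% of the listed genes, a share that follows from the selection, and nothing is read from the members' count. The members' log2 fold changes were -2.32 ± 0.61 (SE, edgeR adjusted p = 0.00909) for Mmp12, -1.94 ± 0.44 (0.00632) for Gpnmb and -1.69 ± 0.56 (0.0163) for Lgals3. They were -1.65 ± 0.60 (SE, edgeR adjusted p = 0.0218) for Cd14, -1.49 ± 0.46 (0.0136) for Itgax and -1.07 ± 0.43 (0.0313) for Itgam. Calls of 4 members were also lost when another library was left out, with log2 fold changes near those above. Without KO replicate 2, Lgals3 was at -1.63, Cd14 at -1.82 and Itgam at -0.91 (edgeR adjusted p = 0.0657, 0.0611 and 0.107). Without KO replicate 1, Cd14 was at -1.54 and Itgax at -1.39 (edgeR adjusted p = 0.0703 and 0.0531). Without KO replicate 3, Cd14 was at -1.62 and Itgam at -0.99 (edgeR adjusted p = 0.0533 and 0.106), and without WT replicate 1, Itgam was at -1.13 (0.0615). The members' median was -1.67, beside -1.43 over the 233 listed genes lower in KO. All 3 WT values were above all 3 KO values in FPKM for 4 of the 6 members, Lgals3 and Cd14 being the exceptions, and for 55.0% of the listed genes. The relation of FDR to p in the authors' deposited table implies 16198 tested genes. Adjusted over that number, edgeR called 0 of the 6 members and 1.29% of the listed genes lower. At an unadjusted p under 0.05 edgeR called all 6 lower, as it did 59.9% of the listed genes. DESeq2 adjusted over 16198 genes called 2 members, Gpnmb (0.00528) and Mmp12 (0.0102), and 26.5% of the listed genes lower.

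Leaving out WT replicate 3 moved the members unequally. Gpnmb kept nearly its whole difference, at -1.79 ± 0.47 (SE, edgeR adjusted p = 0.00756), and Itgam went to -0.83 ± 0.33 (0.0409). Mmp12 went to -1.45 ± 0.49 (SE, edgeR adjusted p = 0.0223) and Itgax to -0.94 ± 0.33 (0.0248). Lgals3 was at -0.70 ± 0.32 (SE, edgeR adjusted p = 0.0642) and Cd14 at -0.43 ± 0.28 (0.157), neither of which passed. In this fit 4 of 6 members and 55.5% of the listed genes were called lower. The members' median was then -0.89, while that of the 233 listed genes lower in KO was -1.49. Scaled by relative log expression factors, which assume most listed genes unchanged and shift the median gene by 0.65 (log2), edgeR called 2 members, Gpnmb and Mmp12, and 20.6% of the listed genes lower. Of the 236 listed genes called under that scaling 33.9% were lower, against 60.1% of the 388 called with recovered depth.

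**Figure D5:**
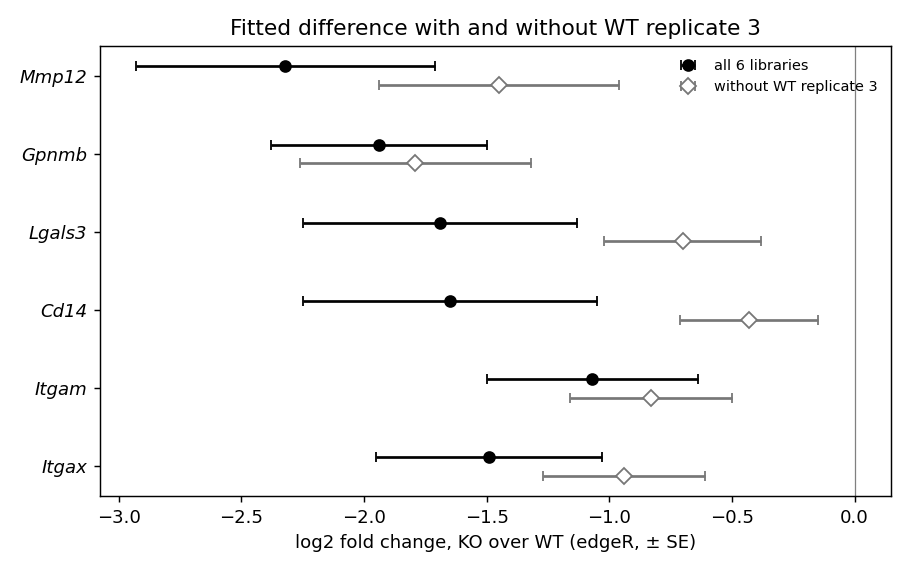
log2 fold change of KO over WT (horizontal axis, edgeR, bars ± SE) for the 6 members, with all 6 libraries (filled circles) and without WT replicate 3 (open diamonds). Gpnmb moves from -1.94 to -1.79, whereas Cd14 moves from -1.65 to -0.43 and Lgals3 from -1.69 to -0.70.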

How the data were processed

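The authors deposited whole-number counts and FPKM per gene and library for 389 selected genes, per the file headers, with their group means, log2 fold change, p-value and FDR. The submitters' processing notes name fastp 0.18.0, HISAT2, StringTie 1.3.1 and RSEM; the sources used here give no build, annotation or strand. Depth was the median of count over FPKM and transcript length in 38 to 51 single-transcript genes per library with at least 50 counts and 1 FPKM. Counts of all 389 genes were fitted with edgeR 4.0.16 under R 4.3.3 (quasi-likelihood test), taking recovered depth as library size, no filter and Benjamini-Hochberg adjustment; 388 IDs matched GENCODE M21. Its spread was estimated from selected genes. SE is the absolute log2 fold change over the root of the F statistic. DESeq2 1.42.0, limma 3.58.1 (pseudocounts 1 and 0.1), other scalings, a filter and omitted libraries were alternatives, and the scripts were tested on simulated data. Of several RefSeq promoters of a gene, the one nearest the GENCODE start was used. Poisson intervals cover counting error only. Members, gene lists and the rule for named genes (members, list genes and the 10 most alike) were chosen with earlier results of these data known. Genes in places 11 to 20 by likeness were named outside that rule.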

Additional observations from a re-analysis of the deposited data

How the results depend on the processing

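No member changed direction under any alternative run. Of 84 alternative values of single members, 62 stayed past the threshold and 22 did not. These leave out the runs adjusted over the authors' tested genes. Mmp12 and Gpnmb passed in all 14 alternatives each (edgeR, DESeq2 or limma adjusted p at most 0.0411 and 0.0333), Itgax in 11, Lgals3 in 10, Itgam in 7 and Cd14 in 6. The number of members called lower was 2 with relative log expression factors and 2 with DESeq2's own size factors, where 236 and 239 listed genes were called in all. Adjustment over the authors' 16198 tested genes gave 0 members and 5 listed genes with edgeR, and 2 members and 153 listed genes with DESeq2, an alternative added after the data were seen. Leaving out 1 library gave 3 to 6 members and 279 to 372 listed genes called, the lowest of both without KO replicate 2, where Lgals3, Cd14 and Itgam did not pass (log2 fold change -1.63, -1.82 and -0.91). Itgam also did not pass without WT replicate 1 or KO replicate 3 (-1.13 and -0.99, beside -1.07 with all libraries), nor Cd14 without KO replicate 1 or 3 (-1.54 and -1.62, beside -1.65), nor Itgax without KO replicate 1 (-1.39, beside -1.49). These fits held 1 sample fewer. Without WT replicate 3, Lgals3 and Cd14 did not pass, at -0.70 and -0.43. The members' median ran from -2.07 to -0.89. Of the 10 most alike genes, 4 were still among the first 10 without WT replicate 3. Same-numbered WT and KO libraries deviated together by r of 0.07, 0.11 and -0.02, so the numbers were not taken as pairs. With the replicate block 5 members and 382 listed genes were called, Itgam (0.0515) being the member lost.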
